A study of Mus musculus with 6 samples.

Results

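Heparan sulfate editing genes, 10 in number, were followed through gene counts of mouse enamel organ cells with and without a Stim1/2 knockout. They encode the enzymes that polymerise the heparan sulfate chain (Ext1, Ext2), those that add its sulfate groups (Ndst1, Ndst2, Hs2st1, Hs6st1, Hs6st2, Hs3st1) and those that remove sulfate again outside the cell (Sulf1, Sulf2). They were chosen by symbol, as a family, with the higher level of Sulf2 in the knockout already known. All 10 were found once among the 46603 genes of the count tables, and all 10 passed the filter on low counts. The knockout-against-wild-type values of the members are therefore a description of the chosen genes.

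The 3 knockout libraries (DKO, replicates 1, 3 and 4) came from C57BL/6 mice labelled Stim1/2 knockout, and the 3 control libraries (WT, replicates 1, 2 and 3) from wild-type mice of the same strain. Primary cells of the enamel organ were taken from lower incisors and lysed directly. STIM1 and STIM2 sense calcium in the endoplasmic reticulum and open channels of the plasma membrane when that store empties, and the series asks what this store-operated entry does in ameloblasts, the cells that make enamel. For the age of the mice, any Cre driver and any pooling of animals, nothing was given in the sources used here. Nothing says that replicates came from separate animals, so a p-value here reflects no more than the spread among the libraries.

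Heparan sulfate is a long sugar chain carried by proteoglycans on the cell surface and in basement membranes. N-sulfation by NDST enzymes comes first and marks the regions in which epimerisation and 2-O-, 6-O- and 3-O-sulfation follow, and the resulting pattern sets which growth factors a chain can hold. The SULF enzymes are secreted endosulfatases that cut 6-O-sulfates from finished chains, which is known to lower FGF binding and to release Wnt ligands. In teeth, FGF and Wnt signals between epithelium and mesenchyme govern growth of the dental epithelium.

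Library totals ran from 18609759 to 22829411 counts. Stim1 stood at 107 to 143 CPM (counts scaled to a common library size by TMM) in DKO and 362 to 491 in WT, a mean of 29.6% of WT. Stim2 stood at 105 to 136 CPM and 229 to 309, a mean of 46.8% of WT, again with no overlap between groups (exact two-sided permutation p = 0.1 for each, the smallest that 3 against 3 libraries allow). Ameloblast transcripts were abundant in every library: the summed level of 7 ameloblast markers, among them Amelx and Klk4, was 137240 to 204887 CPM in DKO and 95742 to 161848 CPM in WT. Markers of other cells were present too. The summed level of 10 mesenchyme markers was 10767 to 13643 CPM in DKO and 6949 to 11567 CPM in WT, and that of 10 leukocyte markers was 137 to 188 CPM in DKO and 95.3 to 134 CPM in WT. For 10 oral keratinocyte markers it was 69.9 to 123 CPM in DKO and 265 to 462 CPM in WT, with Flg at 0 in all libraries. Xist was above 100 CPM in 1 of 3 DKO and 2 of 3 WT libraries, so the sexes were mixed unequally. In such bulk samples, fewer cells of a type and less RNA per cell cannot be told apart.

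The stretches before the start sites of Sulf2, Ext2 and Hs6st1 are shown because these members had DKO and WT libraries that did not overlap, the first pair higher in DKO and Hs6st1 lower. Each is the 250 bases before the RefSeq start on GRCm38.p6, 5′ to 3′ on the gene's own strand, with every GGAAA (the core letters of NFAT sites, NFAT being a transcription factor that store-operated calcium entry activates) on either strand in capitals. Windows of 7 of the 10 members were found in the table used, and for Sulf2 the outer of its RefSeq starts is shown. Ndst1, whose DKO libraries were likewise all below its WT libraries, had no window there.
Sulf2: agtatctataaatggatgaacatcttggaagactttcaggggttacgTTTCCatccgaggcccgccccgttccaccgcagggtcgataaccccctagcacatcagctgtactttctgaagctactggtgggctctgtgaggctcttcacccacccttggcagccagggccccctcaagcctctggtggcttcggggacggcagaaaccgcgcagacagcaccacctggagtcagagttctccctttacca
Ext2: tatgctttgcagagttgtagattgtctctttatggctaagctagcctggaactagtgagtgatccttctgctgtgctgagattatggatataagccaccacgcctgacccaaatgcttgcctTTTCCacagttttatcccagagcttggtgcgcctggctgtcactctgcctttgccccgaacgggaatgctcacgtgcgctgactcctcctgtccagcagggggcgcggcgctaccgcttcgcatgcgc
Hs6st1: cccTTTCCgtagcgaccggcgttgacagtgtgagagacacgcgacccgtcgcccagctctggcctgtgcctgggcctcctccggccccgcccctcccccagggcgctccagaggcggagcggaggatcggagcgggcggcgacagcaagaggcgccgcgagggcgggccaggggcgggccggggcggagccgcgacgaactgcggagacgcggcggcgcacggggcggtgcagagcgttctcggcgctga

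These windows lie at chr2:166155684-166155933 (minus strand) for Sulf2, chr2:93822569-93822818 (minus strand) for Ext2 and chr1:36068150-36068399 (plus strand) for Hs6st1. Each held 1 GGAAA, read on the opposite strand as TTTCC, as did the median promoter window: 55.6% of all 32851 windows of this length held at least 1. The AP-1 letters TGANTCA and the cAMP response element TGACGTCA, searched on both strands, were in none of the 3, and in 6.75% and 1.55% of all windows. The windows differed most in composition. Hs6st1 had 76.4% G + C and 37 CpG pairs, Sulf2 57.2% and 10, and Ext2 54.8% and 12, against medians of 52.4% and 6 over all windows. These are matches of letters, with no measurement of binding.

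Among the wild-type libraries the chain-building and sulfate-removing genes were the most abundant members. Levels between genes are compared in FPKM, which corrects for transcript length. Sulf1 (GRCm38 chromosome 1, 12692277 to 12861192, plus strand) led in WT at 64.1 ± 4.01 FPKM (SD, n = 3), and the range of its libraries overlapped that of Ext1, a subunit of the chain polymerase, at 59.1 ± 3.27. Ext2, its partner subunit, followed at 34.2 ± 1.94 and Sulf2 at 31.0 ± 1.32, with all WT libraries of each gene above those of the next. Both Sulf1 and Ext1 stood higher than over 91% of the 14650 tested genes with an FPKM value, at 92.2% and 91.4%.

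The sulfotransferases stood lower. Ndst1, the N-deacetylase and N-sulfotransferase that starts sulfation, was at 25.4 to 28.3 FPKM in WT (mean 27.1) and its paralog Ndst2 at 13.1 ± 1.23. Hs6st1, which adds 6-O-sulfate, and Hs2st1, which adds 2-O-sulfate to uronic acids, lay between them at 20.3 ± 0.437 and 20.2 ± 3.60 FPKM, and their ranges overlapped. Hs6st2, the X-linked 6-O-sulfotransferase, and Hs3st1, the 3-O-sulfotransferase known for making the antithrombin-binding site, were rare at 2.85 ± 1.15 and 2.16 ± 0.408 FPKM, with overlapping ranges. In DKO the order changed at 1 place near the top: Sulf2 moved from the fourth to the second place at 62.9 ± 1.66 FPKM. Its range overlapped those of Sulf1 (71.1 ± 8.34) and Ext1 (57.8 ± 8.54).

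**Figure D1:**
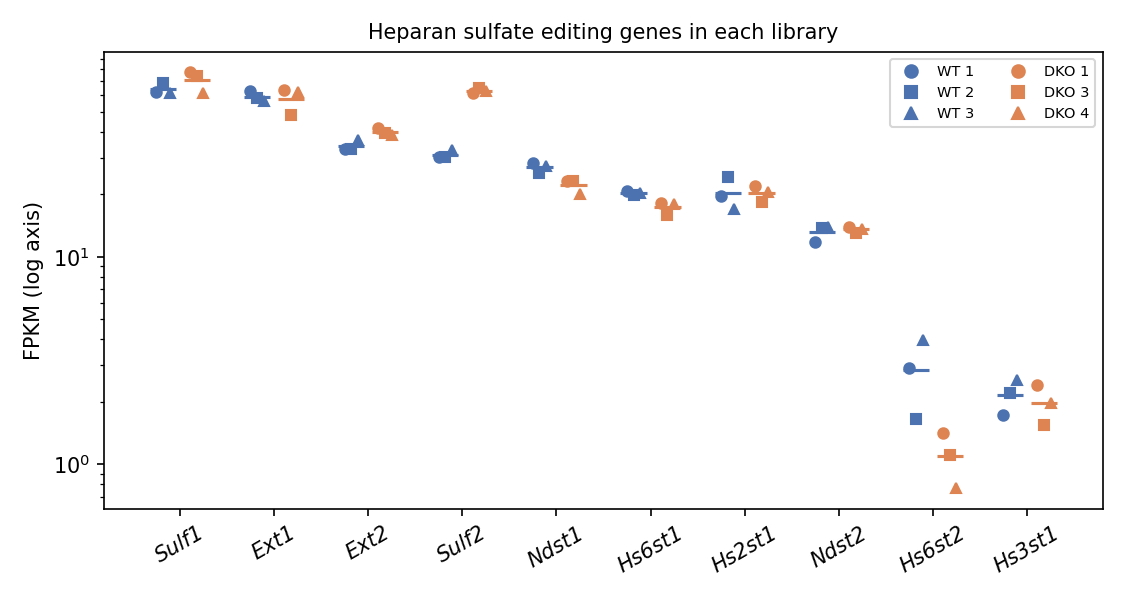
FPKM (log axis) of the 10 members in each library, ordered by the WT mean, with WT libraries in blue, DKO libraries in orange and a line at each group mean. Sulf2 stands at 61.5 to 64.8 FPKM in DKO and 30.1 to 32.5 in WT, while most other members have groups close together.

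Of the enzymes that remove sulfate, Sulf2 was higher in DKO and Sulf1 was not called. Sulf2 (ENSMUSG00000006800, chromosome 2, 166073089 to 166155663, minus strand) stood at 232, 257 and 243 CPM in DKO 1, 3 and 4 and at 115, 120 and 125 CPM in WT 1, 2 and 3. Every DKO library lay above every WT library, and libraries of a group differed little, with a coefficient of variation of 5.02% in DKO and 4.46% in WT. The mean was 2.03-fold higher in DKO, a log2 fold change of 1.02 (SE 0.08). Sulf2 was the 1 member of 10 past the edgeR threshold (Benjamini-Hochberg adjusted p below 0.05), against 1.04% of the 14721 genes tested (0.734% higher and 0.306% lower in DKO). Because its rise was known when the set was chosen, nothing is read from that count. Leaving out each library in turn kept its log2 fold change between 0.99 and 1.07. Within the Xist-high libraries (1 DKO, 2 WT) and within the others (2 DKO, 1 WT) the log2 ratio of means was 0.99 each time. Exons of Sulf2 share 154 of 5871 bases with exons of Ncoa3 on the opposite strand, and the library kit does not mark strand. Ncoa3 stood at 65.3 CPM in DKO and 72.1 in WT, and the part of its reads in the value of Sulf2 was not tested.

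Sulf1, which has the same enzymatic activity, stood at 378, 392 and 310 CPM in DKO 1, 3 and 4 and at 309, 355 and 303 CPM in WT 1, 2 and 3. The groups overlapped, with DKO 4 among the WT libraries. Its log2 fold change was 0.16 (SE 0.12), with an unadjusted 95% interval from -0.12 to 0.44. That interval holds no change and leaves out a rise as large as that of Sulf2. Leaving out 1 library moved the value between 0.10 (without DKO 3) and 0.26 (without DKO 4).

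Ratios within a library do not depend on how libraries are scaled. Sulf2 made up 44.3%, 46.6% and 50.4% of the summed FPKM of both Sulf genes in DKO 1, 3 and 4, and 32.7%, 30.5% and 34.7% in WT 1, 2 and 3. The sum itself was 134 ± 8.54 FPKM in DKO and 95.1 ± 3.28 in WT (SD, n = 3 each), so the summed endosulfatase transcripts also had groups that did not overlap. These sums carry the difference in Sulf2 that chose the set.

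Of the 6-O-sulfotransferases, whose product the SULF enzymes remove, Hs6st1 lay lower in every DKO library without passing the test. Hs6st1 (ENSMUSG00000045216, chromosome 1, 36068400 to 36106446, plus strand) stood at 59.0, 53.7 and 58.7 CPM in DKO 1, 3 and 4 and at 68.8, 66.5 and 67.0 CPM in WT 1, 2 and 3. WT libraries were tightly grouped, with a coefficient of variation of 1.80%. The log2 fold change was -0.24, its SE 0.07 and its edgeR adjusted p 0.135, with an unadjusted 95% interval from -0.39 to -0.08.

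Hs6st2 (ENSMUSG00000062184, chromosome X, 51387212 to 51681856, minus strand) held 107, 85 and 66 counts in DKO 1, 3 and 4 and 270, 82 and 261 counts in WT 1, 2 and 3. That is 5.36, 4.33 and 3.53 CPM in DKO against 11.4, 3.97 and 11.4 CPM in WT, so WT 2 lay within the DKO range. In FPKM the groups did not overlap, at 0.772 to 1.41 in DKO and 1.66 to 3.96 in WT. Its log2 fold change was -1.02, its SE 0.39 and its edgeR adjusted p 0.228, and leaving out WT 2 gave -1.37, past the threshold (edgeR adjusted p = 0.0246, the lowest of the alternatives, the highest being 0.479). Among the Xist-high libraries the log2 ratio of means was -0.52 and among the others -1.53. The oral keratinocyte gene Krt6b, named after its values were seen, had the same low WT library, with 21.9, 5.81 and 22.8 CPM in WT 1, 2 and 3 and 5.86, 1.63 and 3.47 in DKO 1, 3 and 4. All 6 tested oral keratinocyte markers were below 0 on the log2 scale. Unlike Krt6b, 3 of the 6 had every DKO library below every WT library. Summed over the 10 markers of the list, WT 2 stood at 265 CPM, above every DKO library (69.9 to 123 CPM). The part of these cells in the value of Hs6st2 was not tested.

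Summed over Hs6st1, Hs6st2 and Hs6st3, the 6-O-sulfotransferases stood at 19.8, 17.1 and 18.7 FPKM in DKO 1, 3 and 4 and at 24.0, 21.9 and 24.8 FPKM in WT 1, 2 and 3. Hs6st1 supplied 93.2 ± 1.98% of this sum in DKO and 86.4 ± 4.21% in WT (SD, n = 3 each). The ratio of Sulf transcripts to 6-O-sulfotransferase transcripts was 7.02, 8.12 and 6.64 in DKO 1, 3 and 4 and 3.87, 4.52 and 3.78 in WT 1, 2 and 3. Every DKO library was above every WT library, with the Sulf sum higher and the 6-O-sulfotransferase sum lower in DKO. This ratio carries the difference in Sulf2 that chose the set, so nothing is read from its lack of overlap. It is a ratio of transcripts, with no measurement of enzymes or of sulfate on the chains.

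Neither N-sulfation gene passed the test, and the difference between the paralogs was not tested. Ndst1 stood at 153, 162 and 134 CPM in DKO 1, 3 and 4 and at 190, 176 and 186 CPM in WT 1, 2 and 3, each DKO library below each WT library. Its log2 fold change was -0.30, its SE 0.09 and its edgeR adjusted p 0.149, with an unadjusted 95% interval from -0.51 to -0.10. Ndst1 has the ribosomal protein gene Rps14 within its span on the opposite strand, and their annotated exons share 0 bases. Ndst2 stood at 50.5, 51.7 and 50.9 CPM in DKO 1, 3 and 4 and at 43.9, 52.7 and 54.4 CPM in WT 1, 2 and 3, where all DKO libraries lay within the WT range. Its log2 fold change was 0.02 (SE 0.09), with an interval from -0.19 to 0.23. Ndst1 made up 61.8 ± 2.29% of the NDST family's summed FPKM in DKO and 67.2 ± 3.00% in WT (SD, n = 3 each), and the shares of the libraries did not overlap.

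Of the remaining sulfotransferases, Hs2st1 had equal means, at 131 ± 8.33 CPM in DKO and 131 ± 26.5 CPM in WT (SD, n = 3 each). Its WT libraries were spread, at 125, 160 and 108 CPM in WT 1, 2 and 3, so the interval of its log2 fold change ran from -0.32 to 0.32. Hs3st1 held only 51 to 92 counts per library, 3.20 ± 0.606 CPM in DKO and 3.30 ± 0.654 CPM in WT, and its interval from -0.59 to 0.50 is wide.

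Hs3st1 was not the main 3-O-sulfotransferase of this tissue. It made up 2.81 to 5.77% of the summed FPKM of the Hs3st family in WT libraries and 3.15 to 5.15% in DKO libraries. Hs3st3b1 supplied 38.5 ± 5.88% in WT, Hs3st6 33.2 ± 1.36% and Hs3st3a1 24.0 ± 6.29% (SD, n = 3). Hs3st3a1 and Hs3st3b1 encode enzymes known for making the chain that herpes simplex glycoprotein D binds. For these 4 genes the shares of DKO and WT libraries overlapped.

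**Figure D2:**
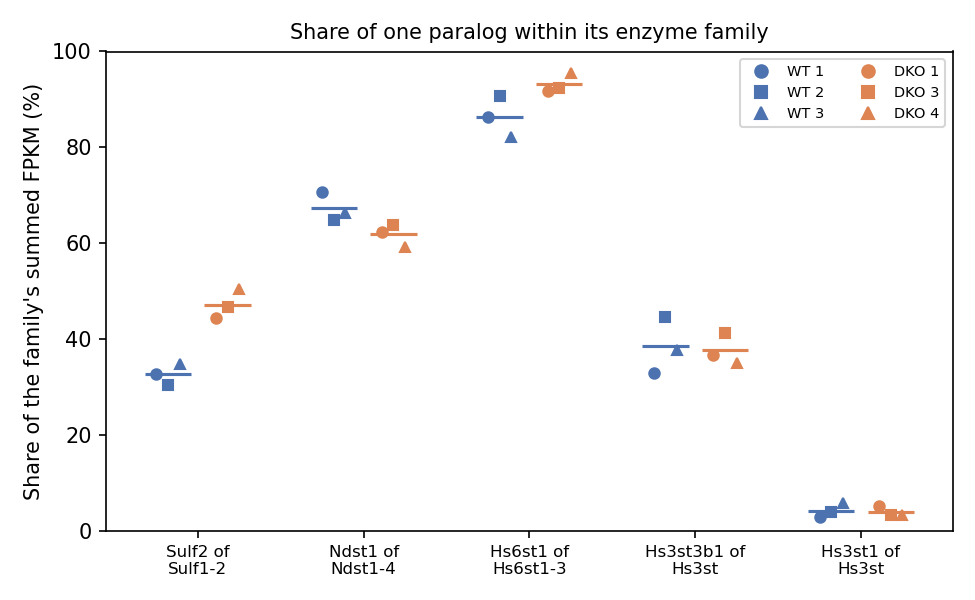
Share (%) of 1 paralog in the summed FPKM of its enzyme family for each library, with WT in blue, DKO in orange and a line at each group mean. Sulf2 takes 44.3 to 50.4% of the Sulf sum in DKO and 30.5 to 34.7% in WT, while Hs3st1 stays below 6% in every library.

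Neither chain polymerase subunit passed the test. Ext2 (ENSMUSG00000027198, chromosome 2, 93661028 to 93822568, minus strand) stood at 108, 108 and 96.7 CPM in DKO 1, 3 and 4 and at 85.5, 88.4 and 94.2 CPM in WT 1, 2 and 3. The groups did not overlap, though DKO 4 and WT 3 were close. The log2 fold change was 0.23, its SE 0.07 and its edgeR adjusted p 0.186, with an unadjusted 95% interval from 0.05 to 0.40. Ext1 stood at 202, 164 and 195 CPM in DKO 1, 3 and 4 and at 204, 193 and 182 CPM in WT 1, 2 and 3, with overlapping groups and a log2 fold change of -0.05 (SE 0.10; interval from -0.28 to 0.18). The ratio of Ext1 to Ext2 in FPKM was 1.45 ± 0.201 in DKO and 1.73 ± 0.174 in WT (SD, n = 3 each), and its groups overlapped as well.

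Over the 10 members, then, 4 had groups that did not overlap in CPM, Sulf2 and Ext2 higher and Ndst1 and Hs6st1 lower in DKO. Of all tested genes 23.3% had such groups, 11.4% higher and 11.8% lower. An unadjusted edgeR p below 0.05 was found for 5 of the 10 (Sulf2, Ndst1, Hs6st1, Hs6st2 and Ext2), against 18.0% of all tested genes. As the set was chosen with the rise of Sulf2 known, nothing is read from these counts. The median log2 fold change of the members was -0.02, and that of all tested genes was -0.01. Of the 9 members that did not pass, adjusted p ran from 0.135 for Hs6st1 to 0.9997 for Hs2st1 (edgeR).

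**Figure D3:**
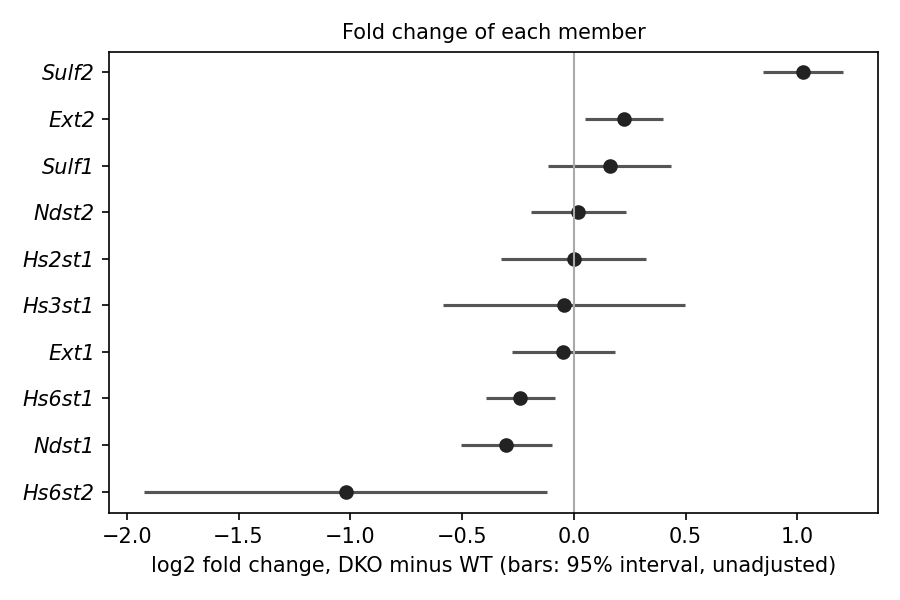
Log2 fold change, DKO minus WT, of the 10 members from the edgeR fit, with unadjusted 95% intervals as bars. Sulf2 lies at 1.02, Hs6st2 at -1.02 with a wide interval, and the other 8 members between -0.30 and 0.23.

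The genes whose libraries followed Sulf2 most closely were found by the root mean square difference in log2 CPM, each gene centred on its mean over the 6 libraries. Among 12142 genes with a mean of at least 50 counts the closest were Chd5 (0.0988), Rcan1 (0.0994), Paqr4 (0.106), Errfi1 (0.110) and Mesp2 (0.112), where the median gene was at 0.537. Rcan1, an inhibitor of calcineurin, stood at 1856, 2257 and 2132 CPM in DKO 1, 3 and 4 and at 1133, 1062 and 1019 CPM in WT 1, 2 and 3. Errfi1, an inhibitor of EGF receptor signalling, stood at 228, 274 and 220 CPM in DKO and at 127, 108 and 124 CPM in WT. Such closeness rests on the shared difference between the groups and says nothing more of these genes.

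The surroundings of the members were described by 9 lists with 98 other genes of the pathway, of which 81 passed the filter on low counts. Of these 81, 2 rose and 0 fell in the edgeR test (2.47%, against 1.04% of all genes). Sdc3 and Dusp6 were the genes that rose. Groups that did not overlap were found for 22 of the 81 (27.2%, against 23.3%). Of those 22, 17 were higher and 5 lower in DKO, against 11.4% and 11.8% of all tested genes. A log2 fold change above 0 was found for 49 of the 81, against 48.7% of all tested genes. The median log2 fold change of the 81 genes was 0.10, and 17 of them (21.0%) had an unadjusted p below 0.05, against 18.0% of all tested genes. The DESeq2 Wald test called 6 of the 83 list genes to which it gave an adjusted p (7.23%), with Hpse, Slc26a1, Col18a1 and Chst13 beside Sdc3 and Dusp6, against 5.53% of all 14948 such genes. With both directions pooled, these shares lie near those over all genes, while the list genes without overlap were mostly higher in DKO.

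Proteoglycan cores carry the chains that the members edit, and 1 of the 14 tested rose in edgeR, against 0.734% of all tested genes. An unadjusted p below 0.05 was found for 3 of the 14, against 18.0% of all tested genes. Another 2 counts lie beside these: 3 of the 14 had groups that did not overlap and were higher in DKO, and 0 lower, against 11.4% and 11.8%. Syndecan-3 (Sdc3), a transmembrane proteoglycan, stood at 233, 352 and 318 CPM in DKO 1, 3 and 4 and at 126, 130 and 128 CPM in WT 1, 2 and 3. The lowest DKO library was well above a narrow WT range. Its log2 fold change was 1.23, its SE 0.15 and its edgeR adjusted p 0.0135, and leaving out DKO 3, DKO 4 or WT 3 ended the call (0.0573 to 0.0803). With any 1 library left out the log2 fold change stayed between 1.10 and 1.39. A limma fit on log2(FPKM + 1) without a filter also ended the call (adjusted p = 0.156). The most abundant cores did not pass. Glypican-1 (Gpc1), a lipid-anchored proteoglycan, stood at 1136 ± 193 CPM in DKO and 884 ± 33.2 in WT, and syndecan-1 (Sdc1), the main epithelial syndecan, at 808 ± 41.2 and 830 ± 61.6 (SD, n = 3 each). Their log2 fold changes were 0.36 (SE 0.14) and -0.04 (SE 0.10). In FPKM, Sdc1 at 317 and Gpc1 at 203 in WT were more abundant than any of the 10 editing genes. The list's median log2 fold change was 0.00026.

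Heparan sulfate breakdown had 0 of 11 tested genes past the edgeR threshold in either direction, and 2 of 11 with an unadjusted p below 0.05 (18.0% of all tested genes). Nearest was heparanase (Hpse), which cuts the chains, named after its values were seen. It stood at 52.3, 74.7 and 52.7 CPM in DKO 1, 3 and 4 and at 36.3, 34.3 and 32.9 CPM in WT 1, 2 and 3, with no overlap and a log2 fold change of 0.80, its SE 0.14 and its edgeR adjusted p 0.0522. It was called with total counts or upper-quartile scaling, without a low-count filter, and by DESeq2. Ids, which encodes the lysosomal iduronate sulfatase and is among the most abundant of the list, had a log2 fold change of -0.18 (SE 0.07). Sumf1, named after its value was seen, makes the enzyme that activates all sulfatases, the SULF enzymes included, and stood at 65.1 CPM in DKO and 59.5 in WT without passing.

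Supply of sulfate had 0 of 8 genes past the edgeR threshold and 3 with an unadjusted p below 0.05 (18.0% of all tested genes). Groups that did not overlap were found for 4 of the 8, all higher in DKO, against 23.3% of all tested genes, 11.4% higher. The sulfate transporter gene Slc26a1 stood at 167, 192 and 182 CPM in DKO 1, 3 and 4 and at 106, 133 and 139 CPM in WT 1, 2 and 3, a log2 fold change of 0.52, its SE 0.11 and its edgeR adjusted p 0.0864. It passed without a low-count filter (0.0230) and by the DESeq2 Wald test (0.00255). Slc26a1 lies within the span of Idua on the opposite strand, and Idua stood at 17.5 CPM in DKO and 17.0 in WT. The part of Idua reads in the value of Slc26a1 was not tested. Impad1, a Golgi phosphatase that clears the spent sulfate donor, had a log2 fold change of 0.06 (SE 0.09). The list's median was 0.16.

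Linker and chain synthesis (9 tested) and other modifying enzymes (5 tested) had 0 genes past the edgeR threshold. An unadjusted p below 0.05 was found for 2 and 0 of them, against 18.0% of all tested genes. Their median log2 fold changes were 0.13 and -0.08. Extl3, which starts the heparan sulfate chain on its linker, stood at 160 CPM in DKO and 136 in WT (log2 fold change 0.24, SE 0.09) and Fam20b, the xylose kinase of the linker, at 129 and 133 (-0.04, SE 0.09). Glce, the epimerase that turns glucuronic into iduronic acid, stood at 99.7 and 104 CPM (-0.06, SE 0.11), and Hs3st3b1 at 98.5 and 104 (-0.08, SE 0.16). Ndst3, Ndst4, Hs3st2, Hs3st4 and Hs3st5 did not pass the filter on low counts, at or below 0.501 CPM in any library.

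**Figure D4:**
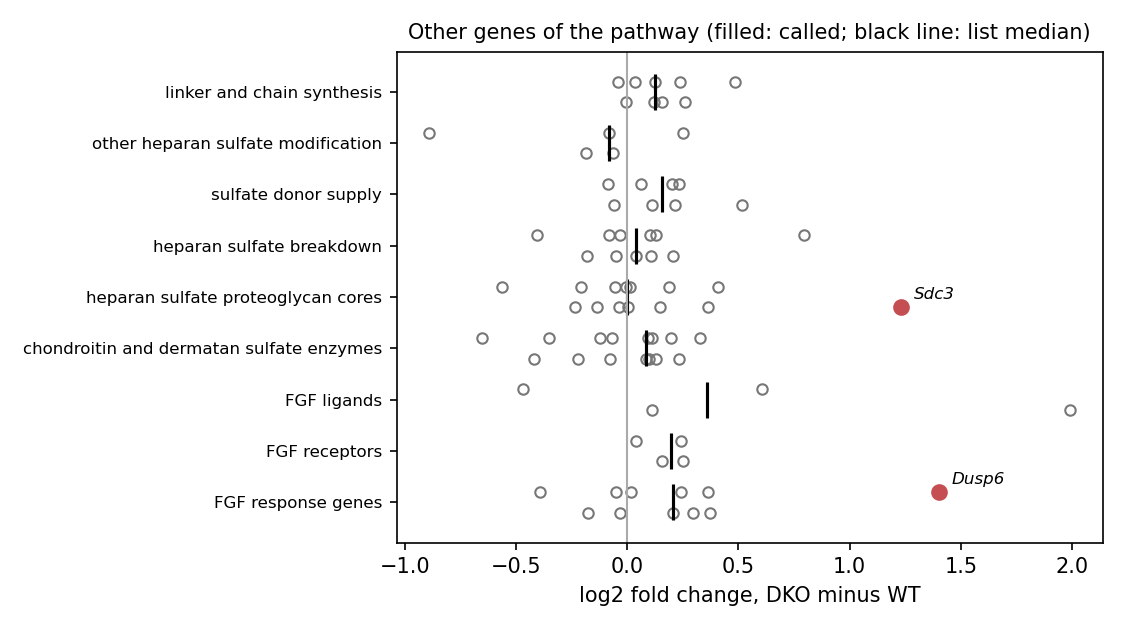
Log2 fold change, DKO minus WT, of the 81 tested genes of the 9 pathway lists, 1 circle per gene, filled where the edgeR test called it, with the list median as a black line. Sdc3 at 1.23 and Dusp6 at 1.40 are the filled points.

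Growth factors of the FGF family bind heparan sulfate together with their receptors, and 0 of 4 tested ligands and 0 of 4 tested receptors passed in edgeR. In each list 1 gene had an unadjusted p below 0.05, against 18.0% of all tested genes. Log2 fold changes ran from -0.47 to 1.99 for the ligands (median 0.36) and from 0.04 to 0.25 for the receptors (median 0.20). Fgf1 stood at 105 CPM in DKO and 96.8 in WT (log2 fold change 0.11, SE 0.12) and Fgf2 at 2.12 and 2.93 CPM (-0.47, SE 0.30). Fgfr1 stood at 792 and 711 CPM (0.16, SE 0.11) and Fgfr2 at 233 and 227 (0.04, SE 0.09; -0.01 with total counts as scaling).

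Of 11 FGF response genes 1 rose in edgeR, against 0.734% of all tested genes. An unadjusted p below 0.05 was found for 3 of the 11, against 18.0% of all tested genes. Without overlap between groups were 2 higher and 1 lower in DKO, against 11.4% and 11.8% of all tested genes. Dusp6, the ERK phosphatase that FGF signalling induces as a brake, stood at 83.8, 96.0 and 103 CPM in DKO 1, 3 and 4 and at 49.6, 26.3 and 30.9 CPM in WT 1, 2 and 3. The groups did not overlap, and the log2 fold change was 1.40, its SE 0.22 and its edgeR adjusted p 0.0380. Leaving out DKO 1, DKO 3, DKO 4 or WT 3 ended the call, with edgeR adjusted p values of 0.0763 to 0.143, as did adjusting for Xist-high libraries (0.0911) and the 3 limma fits on FPKM (0.0540, 0.0563 and 0.185). With any 1 library left out the log2 fold change stayed between 1.23 and 1.72, and with the adjustment for Xist it was 1.41. Without DKO 3, DKO 4 or WT 3 the calls over all genes also dropped, from 153 to between 21 and 30. The other 10, among them the inhibitors of the Sprouty and Spred families and the factors Etv4 and Etv5, did not pass. Spred1, a Spred family inhibitor and the most abundant of the list, had a log2 fold change of -0.05 (SE 0.11), and the list's median was 0.21.

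**Figure D5:**
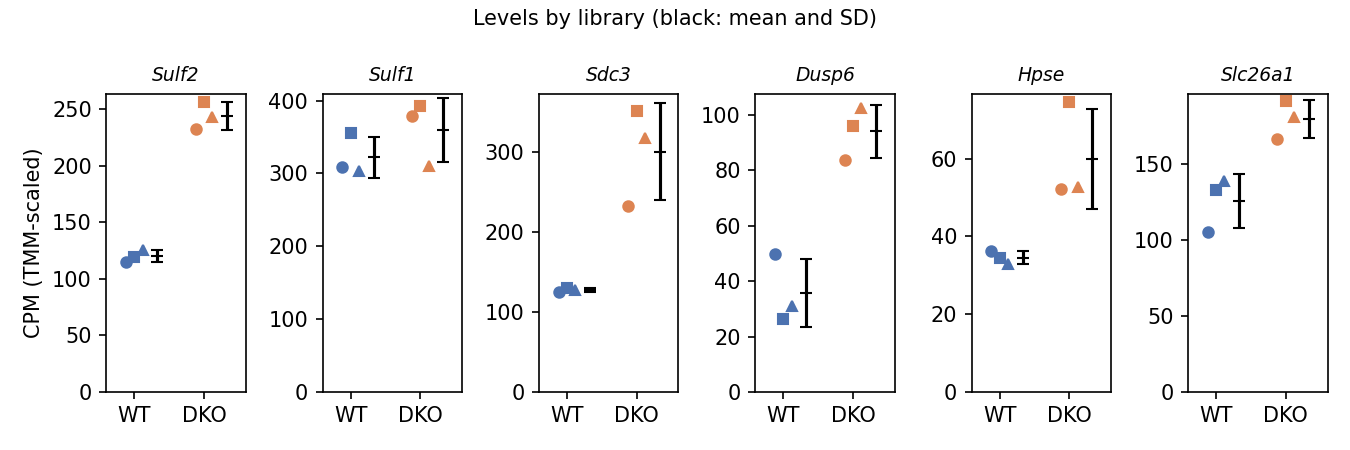
Levels (CPM, TMM-scaled) by library of Sulf2, Sulf1, Sdc3, Dusp6, Hpse and Slc26a1, with the mean and SD of each group (n = 3) in black. All but Sulf1 have DKO libraries above every WT library.

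Markers of several cell types leaned to one side, where 48.7% of all tested genes had a log2 fold change above 0. All 10 mesenchyme and all 10 leukocyte markers had log2 fold changes above 0, with medians of 0.33 and 0.44, as did 9 of 10 endothelium markers with a median of 0.28, while all 9 dental epithelium markers were below 0 with a median of -0.35. Of the ameloblast markers 6 of 7 were above 0, of odontoblast and osteoblast markers 5 of 7, and of skeletal muscle markers 1 of 8, with medians of 0.24, 0.14 and -0.95. Summed levels in DKO were 1.25-fold those of WT for ameloblasts and for mesenchyme, 1.26-fold for odontoblasts and osteoblasts, 1.41-fold for leukocytes and 1.14-fold for endothelium, against 2.03-fold for Sulf2. For dental epithelium the sum was 0.763-fold, at 9607 to 10135 CPM in DKO and 11744 to 13841 CPM in WT with no overlap, and for skeletal muscle 0.692-fold. An unadjusted p below 0.05 was found for 0 mesenchyme, 6 leukocyte, 3 endothelium and 4 dental epithelium markers, against 18.0% of all tested genes. In edgeR 1 of 9 dental epithelium markers (adjusted p = 0.0455) and 1 of 6 tested oral keratinocyte markers (0.0216) passed. Both were lower in DKO, against 0.306% of all tested genes. The part of these cells in the values of Sulf2, Sdc3 and the other genes was not tested.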

How the data were processed

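Gene counts (whole numbers, not normalised) and FPKM values, 1 table of each per library, were deposited by the authors. FPKM comes from Cufflinks gene tables, per the file headers. Trimmomatic 0.32, Cufflinks 2.2, HTSeq and GRCm38 are named, per the submitters' processing notes. For the aligner, annotation release and counting options, nothing was given in the sources used here. DKO was compared with WT on the counts by edgeR 4.0.16 (quasi-likelihood, TMM scaling, filterByExpr, no covariate) in R 4.3.3, with Benjamini-Hochberg adjustment over 14721 genes. A standard error is the log2 fold change over the square root of F. Intervals are unadjusted. Precision is set by 3 libraries per group. The tests were checked on simulated counts. Positions are from GENCODE vM21 (1-based) and promoters from RefSeq.

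Members and lists were chosen with earlier results of these data known. Named were all members, Stim1, Stim2, called list genes (at most 6 per list), the 2 most abundant genes of each list, and the 5 genes most like Sulf2. Genes withheld from this text are not reported here. Alternatives were other scalings, filters, DESeq2 1.42.0, limma 3.58.1 on log2(FPKM + 1) or log2(FPKM + 0.1), a term for Xist-high libraries, the replicate number as a block, and each library left out.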

Additional observations from a re-analysis of the deposited data

How the results depend on the processing

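Sulf2 passed under all 17 alternatives run, with log2 fold changes from 0.97 to 1.07. All of them refit the libraries in which its rise was known when the set was chosen, so they are no independent support. The count of genes called was 153, and it was 554 without a low-count filter, 71 with the Xist term, 826 by DESeq2, 77 by limma on FPKM with either pseudocount and 11 by limma on FPKM with no filter. Leaving out 1 library gave 21 (without DKO 4) to 335 (without WT 2). Pathway genes called were 2, and 3 with total counts, upper-quartile scaling or the replicate block, 5 with no filter, 1 with the Xist term, 6 by DESeq2, 1 by limma with either pseudocount, 0 by limma with no filter, and 0 (without DKO 3, DKO 4 or WT 3) to 2 with 1 library left out. Only replicate numbers 1 and 3 occur in both groups, and nothing says that they pair the libraries, so the numbers were not taken as pairs. Deviations of same-numbered libraries correlated at 0.19 and -0.01. In the listed order, DKO 1 with WT 1, DKO 3 with WT 2 and DKO 4 with WT 3 correlated at 0.19, 0.23 and 0.19. Other pairs of a DKO and a WT library correlated at -0.22 to 0.03. Whether libraries were paired or batched in that order was not tested. With the replicate block 328 genes were called, Hs6st2 passed (edgeR adjusted p = 0.0485), Csgalnact1 joined Sdc3 and Dusp6, and Sulf1 stood at 0.333. In that fit WT 2 and DKO 4 are each alone in their block, so they add nothing to the comparison of the groups. It rests on replicates 1 and 3 of each group, with 1 residual degree of freedom. For Hs6st2 it thus sets aside WT 2, as leaving out that library does. Signs of small, uncalled changes turned in 5 of 17 alternatives for Hs2st1, 3 for Ndst2, 2 for Hs3st1 and 2 for Ext1, and among pathway genes: Fam20b to 0.0759, Glce to 0.0285, Hs3st3b1 to 0.0464 and Spred1 to 0.0505 with the replicate block, and Fgfr2 to -0.00856 with total counts and to -0.00607, -0.00613 and -0.00607 with the limma fits (pseudocount 1, 0.1, and 1 without a filter). Leaving out 1 library, log2 fold changes ran from -0.0831 to 0.0244 for Fam20b, -0.137 to 0.0519 for Glce, -0.218 to 0.0980 for Hs3st3b1, -0.0164 to 0.115 for Impad1, -0.0818 to 0.0262 for Sdc1, -0.00189 to 0.0966 for Fgfr2 and -0.133 to 0.0142 for Spred1. The causes were not tested.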

Other observations

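Chondroitin and dermatan sulfate share the linker and the sulfate donor with heparan sulfate. Of 15 tested enzymes of these chains, 0 passed in either direction by edgeR. An unadjusted p below 0.05 was found for 2, against 18.0% of all tested genes. The median log2 fold change of the 15 was 0.08. Chst13, a further gene of the list that did not pass the filter on low counts, was called by DESeq2. It held 6, 21 and 54 counts in DKO 1, 3 and 4 and 2, 6 and 0 counts in WT 1, 2 and 3. Chst11, a chondroitin 4-O-sulfotransferase, stood at 253 CPM in DKO and 236 in WT (log2 fold change 0.10, SE 0.11), and Dse, a dermatan sulfate epimerase, at 122 and 132 CPM (-0.12, SE 0.11). Csgalnact1, which starts the chondroitin chain and was named after its values were seen, stood at 31.2, 19.2 and 23.2 CPM in DKO 1, 3 and 4 and at 48.7, 37.4 and 29.5 CPM in WT 1, 2 and 3, with overlapping groups (-0.65, SE 0.22; edgeR adjusted p = 0.192).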
